A study of Mus with 21 samples.

Results

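The genes described here are those that encode the subunits of the integrins and the chains of the laminins, the main receptors of cells for matrix and the main non-collagenous proteins of basement membranes. They were chosen by symbol and not by any measured value: 36 of the 18806 genes in the files encode an integrin alpha subunit (17 genes), an integrin beta subunit (8 genes) or a laminin chain (11 genes). They were sorted by where each subunit is best known into 8 leukocyte integrins (5 in the family of Itgb2 and 3 around alpha 4 and beta 7), 6 epithelial integrins, 4 epithelial laminins, 10 stromal, vascular or broadly expressed integrins, 2 genes of muscle and 6 stromal and vascular laminins. Itga2b, the platelet alpha subunit, is given beside them and not counted. Itgb2l, a relative of Itgb2, was not counted either, and its values are not given.

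An integrin is a pair of an alpha and a beta subunit, and neither chain reaches the cell surface in number without the other, so that the mix of subunits a cell makes sets which matrix it can hold. Laminins are cross-shaped trimers of an alpha, a beta and a gamma chain. In skin, basal keratinocytes sit through the integrins alpha 6 beta 4 and alpha 3 beta 1 on a laminin that holds Lama3 and Lamb3, which the migrating tongue of a wound lays down, fibroblasts hold fibronectin through alpha 5 beta 1, vessels are wrapped in laminins with Lama4 and Lama5, and neutrophils and monocytes enter the wound with the Itgb2 integrins.

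RNA was sequenced from full-thickness skin wounds, 8 mm wide and held open by a splint, on the back of wild-type C57BL/6 female mice aged 8 weeks, on day 4 after wounding. The control wounds received no hydrogel, and the other 6 groups received a GelMA (gelatin methacryloyl) hydrogel of pH 6.4, 7.4 or 8.4 loaded with acidic or basic fibroblast growth factor, so that the groups are control, 6.4/aFGF, 7.4/aFGF, 8.4/aFGF, 6.4/bFGF, 7.4/bFGF and 8.4/bFGF. Each group had 3 libraries, 21 in all, labelled as biological replicates. The paper describes 3 mice per group, each wounded on both sides of the back. Whether each library came from a separate mouse is not stated. No group had a hydrogel without growth factor, so the gel and the factor cannot be told apart in the comparison with control.

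Libraries held 34362558 to 37817833 counts (median 36771838), and values are CPM (counts scaled by library size and TMM factor) unless FPKM, which divides by gene length, is named. Some libraries stood apart. Control replicate 2 had a summed level of 12 neutrophil markers of 10165 CPM, against 1405 and 836 in the other controls. The skeletal muscle markers ranged from 292 to 18740 CPM over libraries, and 10 markers of T and NK cells summed to 418 CPM in 7.4/aFGF replicate 1 against 27.0 to 182 elsewhere. Earlier results of these data had shown genes of other tissues in 7.4/aFGF replicate 3, 8.4/aFGF replicate 2 and 8.4/bFGF replicate 2. Because wounds are mixtures, fewer cells of a type and less RNA per cell cannot be told apart in any value below.

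By FPKM the transcripts covered a wide range. The median over 21 libraries was at or above 50 for 7 members, between 10 and 50 for 7, between 1 and 10 for 16 and under 1 for 6. Itgb1, the beta subunit shared by most matrix integrins, led with a median FPKM of 194 (range 172 to 242), and Itgam, the alpha M subunit of neutrophils and macrophages, came next with 147 (range 59.2 to 195). They were followed by Itgb2 at 114 (range 74.1 to 176), the fibronectin receptor subunit Itga5 at 77.8 (range 33.0 to 145), and the basement membrane chains Lamc1 at 56.5 (range 41.4 to 68.4) and Lamb1 at 53.4 (range 40.5 to 78.0). The ranges of these neighbours overlapped, and the order within such runs is not beyond the spread between libraries.

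**Figure D1:**
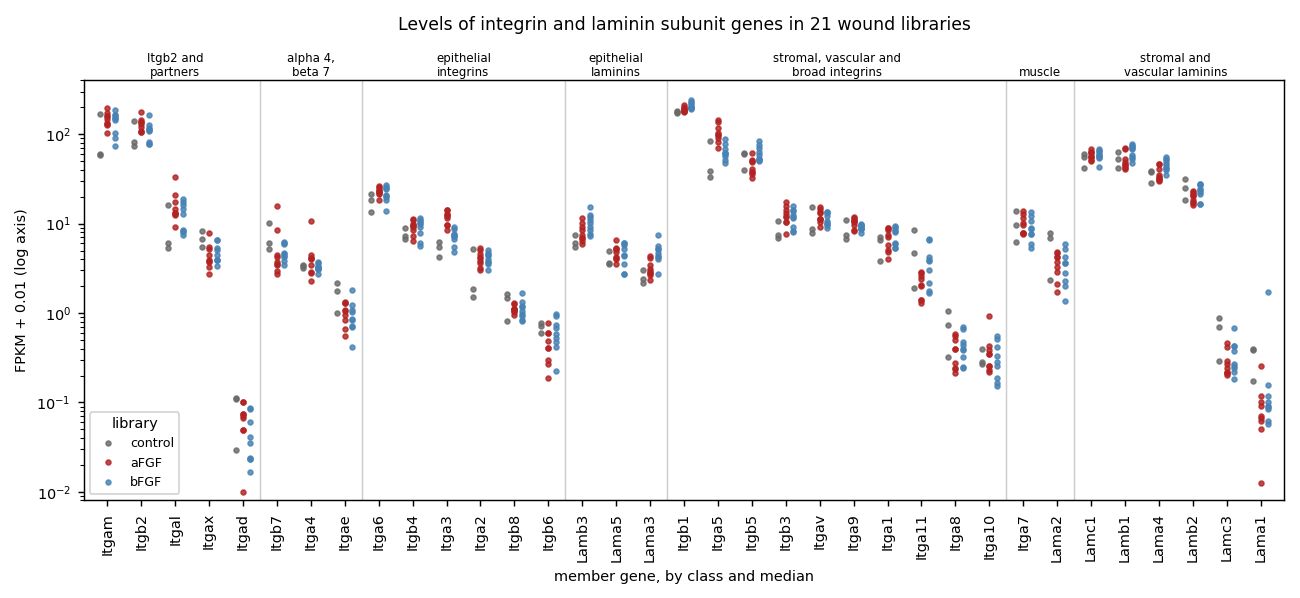
FPKM (plus 0.01, log axis) of 35 integrin and laminin subunit genes, 1 point per library, ordered by class and by median within a class, with control, aFGF and bFGF libraries side by side. Itgb1 is the highest and the steadiest, Itga3 is the epithelial gene whose aFGF and bFGF points part most, and the lowest genes are Lama1 and Itgad.

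Partners differed in level. The 12 alpha subunits that pair with Itgb1 summed to a median FPKM of 154 (range 97.7 to 242). That sum was 0.714 times the FPKM of Itgb1 (0.567 to 1.19), and Itga5 made up 51.4% of it (33.8 to 64.1%). Among the 12, Itga4, Itga6 and Itgav also pair with other beta subunits, so not all of the sum need belong to Itgb1. The 4 alpha subunits of Itgb2 summed to 1.35 times the FPKM of Itgb2 (0.872 to 1.70), and Itgam made up 88.3% of them (77.9 to 92.3%). Among the laminins of keratinocytes, the median FPKM of Lamb3 was 8.47 (range 5.48 to 15.5) and that of Lama3 3.47 (range 2.16 to 7.38). Itga6 exceeded its hemidesmosome partner Itgb4 by 2.35 times (1.83 to 3.20). These are ratios of transcripts and carry no measure of the proteins.

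The members at the bottom of the scale were Itgad (median FPKM 0.0505 (range 0 to 0.103)), Lama1 (0.0810 (range 0.00264 to 1.69)), Lamc3 (0.259 (range 0.173 to 0.873)), Itga10 (0.273 (range 0.142 to 0.913)), Itga8 (0.383 (range 0.205 to 1.03)) and Itgb6 (0.565 (range 0.178 to 0.973)). Itgad was the only member with 0 counts in a library, 8.4/aFGF replicate 2, where a count of 0 allows up to 0.0810 CPM. Itgad passed the filter on low counts in the fit of all libraries and in the interaction at pH 8.4, and failed it in the other fits, which hold 35 members. Over libraries, members varied more than genes at large, with a median SD of log2 CPM of 0.44 against 0.32 over 15811 genes tested, while a median of 40.6% of that variance lay between the 7 groups against 39.1% for all genes. Itgb1 was the steadiest member, with an SD of 0.14 on the log2 scale, and its mean CPM was 737 ± 65.9 in control, 843 ± 81.9 in 6.4/aFGF, 807 ± 20.0 in 7.4/aFGF, 788 ± 36.3 in 8.4/aFGF, 939.9 ± 114 in 6.4/bFGF, 838 ± 17.8 in 7.4/bFGF and 834 ± 70.3 in 8.4/bFGF (SD, n = 3 each). The share of variance between groups was highest for Itga3 (77.6%), followed by Lama3 (65.7%), Itga5 (64.7%) and Lamc3 (62.5%).

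The comparison of aFGF with bFGF over all pH, 9 libraries against 9, was the comparison in which members changed. Itga3, the alpha subunit of a laminin receptor of keratinocytes, was higher with aFGF. Itga5, the alpha subunit of the fibronectin receptor, was higher with aFGF by about the same factor. EdgeR called 2 of 36 members past both limits (adjusted p below 0.05, log2 fold change over 0.58 in size), against a background of 3.2% of 15811 genes, with both members higher (background 1.46% higher and 1.74% lower). With the adjusted p alone it called 4 of 36 members, 2 higher and 2 lower, against 10.8% of all genes (6.12% higher and 4.64% lower), the added ones being Itgb5, a vitronectin receptor subunit, and Lama3, the alpha chain of the keratinocyte laminin, both lower with aFGF. The shares are near the background. In no member did the 9 aFGF and 9 bFGF libraries separate fully, as they did for 0.607% of genes.

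Itga3 had CPM of 31.9, 31.0 and 21.0 in control, 69.9, 49.7 and 62.8 in 6.4/aFGF, 65.9, 73.5 and 50.2 in 7.4/aFGF, 72.3, 76.0 and 44.9 in 8.4/aFGF, 39.0, 40.4 and 25.7 in 6.4/bFGF, 34.0, 39.0 and 29.8 in 7.4/bFGF and 46.9, 41.5 and 37.5 in 8.4/bFGF. It was high in the aFGF libraries at every pH and low in control and bFGF libraries, and 8 of 9 aFGF libraries lay above all bFGF libraries, the exception being 8.4/aFGF replicate 3. The fold was 1.72 (log2 fold change 0.78, SE 0.13), with an edgeR adjusted p of 0.00462. Leaving out any single library kept the log2 fold change between 0.72 and 0.85 and the edgeR adjusted p between 0.00172 and 0.0139. The keratinocyte markers were detected in every library and summed to 4968 to 10354 CPM with aFGF and 4093 to 9734 CPM with bFGF, and none of these 15 genes was called between aFGF and bFGF. Over the 21 libraries Itga3 correlated with the keratinocyte score with r = 0.30 (rho = 0.21, permutation p = 0.183 and 0.370, adjusted 0.426 and 0.663). That score was 0.18 higher on the log2 scale with aFGF, and its part in the difference of Itga3 was not tested.

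Itga5 had CPM of 167, 403 and 139 in control, 667, 307 and 375 in 6.4/aFGF, 537, 406 and 442 in 7.4/aFGF, 671, 476 and 441 in 8.4/aFGF, 295, 411 and 355 in 6.4/bFGF, 222, 252 and 284 in 7.4/bFGF and 207, 251 and 271 in 8.4/bFGF. It was at 307 CPM or more in every aFGF library, and with bFGF it was below the lowest aFGF library in 7 of 9 libraries. The exceptions were 2 of the 3 libraries of 6.4/bFGF. Control replicate 2, the control rich in neutrophil markers, lay far above the other controls, which were below all hydrogel libraries. The fold between aFGF and bFGF was 1.73 (log2 fold change 0.79, SE 0.20, edgeR adjusted p = 0.0204). Without 7.4/aFGF replicate 3, 8.4/aFGF replicate 2 and 8.4/bFGF replicate 2, the log2 fold change was 0.85 and the call was lost (edgeR adjusted p = 0.0521). Itga5 moved with the neutrophil markers over libraries (r = 0.73, rho = 0.60, permutation p = 0.00017 and 0.00459, adjusted 0.00437 and 0.0486; r within groups 0.79; r without the 2 libraries farthest in the neutrophil score 0.49). The neutrophil score was 0.24 higher on the log2 scale with aFGF, the 12 markers summed to 4426 to 12126 CPM with aFGF and 3783 to 14253 CPM with bFGF, and none of them was called. Their part in the difference of Itga5 was not tested.

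**Figure D2:**
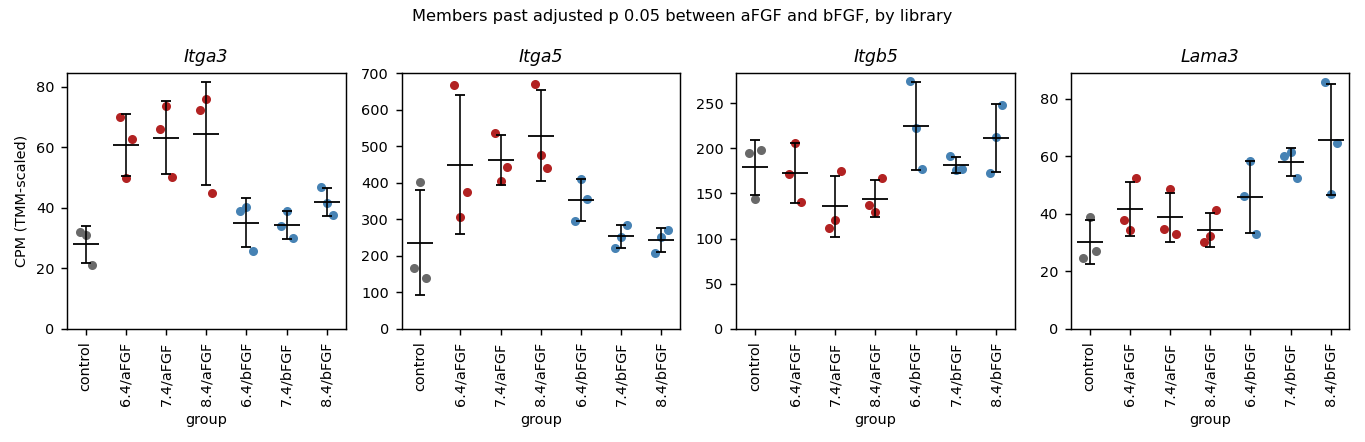
CPM of Itga3, Itga5, Itgb5 and Lama3 in each library by group, with the mean (bar) and SD (error bar) of the 3 libraries of a group; control is grey, aFGF red and bFGF blue. Itga3 and Itga5 are higher in the aFGF groups, Itgb5 and Lama3 are lower, and points of the growth factors overlap in each gene.

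Itgb5 ran from 112 to 206 (median 141) CPM with aFGF, from 173 to 275 (median 192) CPM with bFGF and had 195, 144 and 198 CPM in control. Of the 9 aFGF libraries, 7 lay below all bFGF libraries, and the log2 fold change was -0.44 (SE 0.12, edgeR adjusted p = 0.0263), within the fold limit. Itgb5 correlated with the smooth muscle and pericyte markers (r = 0.70, rho = 0.72, permutation p = 0.00049 and 0.0004, adjusted 0.00882 and 0.00939). That score was 0.36 lower on the log2 scale with aFGF, with 1 of 10 markers called lower and sums of 894 to 2122 CPM with aFGF and 915 to 2189 CPM with bFGF, and its part in the difference was not tested. Leaving out 1 library took the edgeR adjusted p of Itgb5 past 0.05 in several cases, at most to 0.0632 without 6.4/bFGF replicate 1, with a log2 fold change of -0.38.

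Lama3 and Lamb3 are chains of the laminin that anchors the epidermis to the dermis. Lama3 had CPM of 24.7, 38.8 and 26.9 in control, 37.9, 34.4 and 52.3 in 6.4/aFGF, 34.6, 48.6 and 33.1 in 7.4/aFGF, 30.0, 32.2 and 41.1 in 8.4/aFGF, 46.2, 58.3 and 33.0 in 6.4/bFGF, 60.2, 61.4 and 52.2 in 7.4/bFGF and 85.7, 46.9 and 64.7 in 8.4/bFGF. The highest value was 8.4/bFGF replicate 1 and the lowest were control libraries, and 5 of 9 bFGF libraries lay above all aFGF libraries. The log2 fold change of aFGF against bFGF was -0.54 (SE 0.14, edgeR adjusted p = 0.0272), within the fold limit, and leaving out 1 library took the adjusted p to at most 0.0589, without 8.4/aFGF replicate 1. Lamb3 had CPM of 27.7 to 50.1 (median 32.6) with aFGF and 29.7 to 65.0 (median 45.4) with bFGF (log2 fold change -0.30, SE 0.15, edgeR adjusted p = 0.205). Lamb3 did not pass the test. Lama5, the alpha chain of basement membranes under epithelia and endothelium, had a log2 fold change of 0.15, where the median was 0.08 over all members and -0.00 over all genes.

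Hemidesmosome integrins differed less between growth factors. Itga6 had mean CPM of 106 ± 19.9 in control, 153 ± 8.79 in 6.4/aFGF, 141 ± 5.97 in 7.4/aFGF, 132 ± 9.36 in 8.4/aFGF, 122 ± 32.8 in 6.4/bFGF, 119 ± 4.37 in 7.4/bFGF and 147 ± 3.01 in 8.4/bFGF (SD, n = 3 each). The log2 fold change between aFGF and bFGF was 0.15 (SE 0.090, edgeR adjusted p = 0.284). Itgb4 had mean CPM of 48.2 ± 6.15 in control, 64.3 ± 8.45 in 6.4/aFGF, 57.2 ± 11.6 in 7.4/aFGF, 56.6 ± 10.4 in 8.4/aFGF, 53.2 ± 14.2 in 6.4/bFGF, 54.0 ± 15.0 in 7.4/bFGF and 63.6 ± 7.79 in 8.4/bFGF, and its log2 fold change was 0.08. The remaining epithelial integrins, Itga2 (a collagen receptor subunit), Itgb8 and Itgb6 (partners of Itgav that activate latent TGF-beta), had log2 fold changes of 0.08, 0.07 and -0.41, none of which passed the test. Of the 6 epithelial integrins 5 lay above 0, with a median of 0.08.

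Of the Itgb2 family, 4 of 5 members lay above 0, with a median log2 fold change of 0.32, and none was called between aFGF and bFGF. Itgb2, the common beta subunit of these integrins, had CPM of 208, 441 and 227 in control, 392, 304 and 319.7 in 6.4/aFGF, 527, 316 and 420.1 in 7.4/aFGF, 433, 360.5 and 398 in 8.4/aFGF, 218, 387 and 487 in 6.4/bFGF, 327, 321 and 334 in 7.4/bFGF and 234, 299 and 224 in 8.4/bFGF. Itgam had CPM of 267, 840.0 and 263 in control, 778, 482 and 609 in 6.4/aFGF, 709, 598 and 812 in 7.4/aFGF, 819.8, 638 and 909 in 8.4/aFGF, 339.6, 747 and 884 in 6.4/bFGF, 735, 672 and 799 in 7.4/bFGF and 471, 639 and 410.3 in 8.4/bFGF. Control replicates 1 and 3 held the lowest Itgam levels and were low in Itgb2 as well, while control replicate 2 was among the higher libraries for both. Itgal, the alpha L subunit of lymphocytes and other leukocytes, ran from 51.2 to 188 (median 73.2) CPM with aFGF and from 39.5 to 108 (median 67.4) CPM with bFGF, and was at 31.6, 93.4 and 27.4 CPM in control. Itgax, the alpha X subunit of dendritic cells and macrophages, ran from 13.0 to 35.5 (median 17.4) CPM with aFGF and from 14.0 to 28.9 (median 20.2) CPM with bFGF, and was at 23.0, 38.6 and 27.5 CPM in control. The log2 fold changes of aFGF against bFGF were 0.32 for Itgb2 (SE 0.16), 0.41 for Itgal, 0.18 for Itgam and -0.06 for Itgax. Itgad, the lowest member by FPKM, was at 0.85. The macrophage and monocyte score was 0.26 higher on the log2 scale with aFGF. Of its 12 markers, 2 were called higher, against 1.46% of all genes. No member of the Itgb2 family passed with that score over libraries, and its part in their values was not tested. Among the alpha 4 and beta 7 genes, which guide lymphocytes, the values were 0.40 for Itga4 (SE 0.18, edgeR adjusted p = 0.155), 0.10 for Itgae and 0.10 for Itgb7. Itga2b, outside the count, had a log2 fold change of 0.49 (SE 0.10, edgeR adjusted p = 0.0111), with the platelet score 0.37 higher on the log2 scale with aFGF and none of 9 platelet markers called.

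In the stromal, vascular and broad class, 5 of 10 members lay above 0 and 5 below, with a median of 0.05 and Itga5 alone called. Itga11, a collagen receptor subunit of fibroblasts, had the lowest value of the class, -0.80 (SE 0.31, edgeR adjusted p = 0.106), with CPM of 7.403 to 15.2 (median 11.0) with aFGF and 8.60 to 34.9 (median 20.0) with bFGF. Itgav, the alpha subunit of the vitronectin and TGF-beta activating receptors, had mean CPM of 109 ± 50.1 in control, 122 ± 33.7 in 6.4/aFGF, 129.6 ± 14.2 in 7.4/aFGF, 127 ± 19.8 in 8.4/aFGF, 122 ± 23.0 in 6.4/bFGF, 113 ± 25.7 in 7.4/bFGF and 105 ± 16.4 in 8.4/bFGF, and Itgb3, its partner on platelets, macrophages and vessels, had mean CPM of 50.3 ± 16.0 in control, 74.9 ± 29.8 in 6.4/aFGF, 78.8 ± 16.5 in 7.4/aFGF, 74.9 ± 9.63 in 8.4/aFGF, 84.5 ± 12.1 in 6.4/bFGF, 57.7 ± 14.4 in 7.4/bFGF and 63.7 ± 14.4 in 8.4/bFGF (SD, n = 3 each). Neither passed the test, with log2 fold changes of 0.17 and 0.18. Of the stromal and vascular laminins, 5 of 6 lay below 0, with a median of -0.22. Lama4, the alpha chain of vessel walls, was at -0.28 (SE 0.10, edgeR adjusted p = 0.0919) and Lamb1 at -0.29 (SE 0.13, edgeR adjusted p = 0.151), neither past the threshold. The muscle genes Itga7 and Lama2 were at 0.22 and 0.13.

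**Figure D3:**
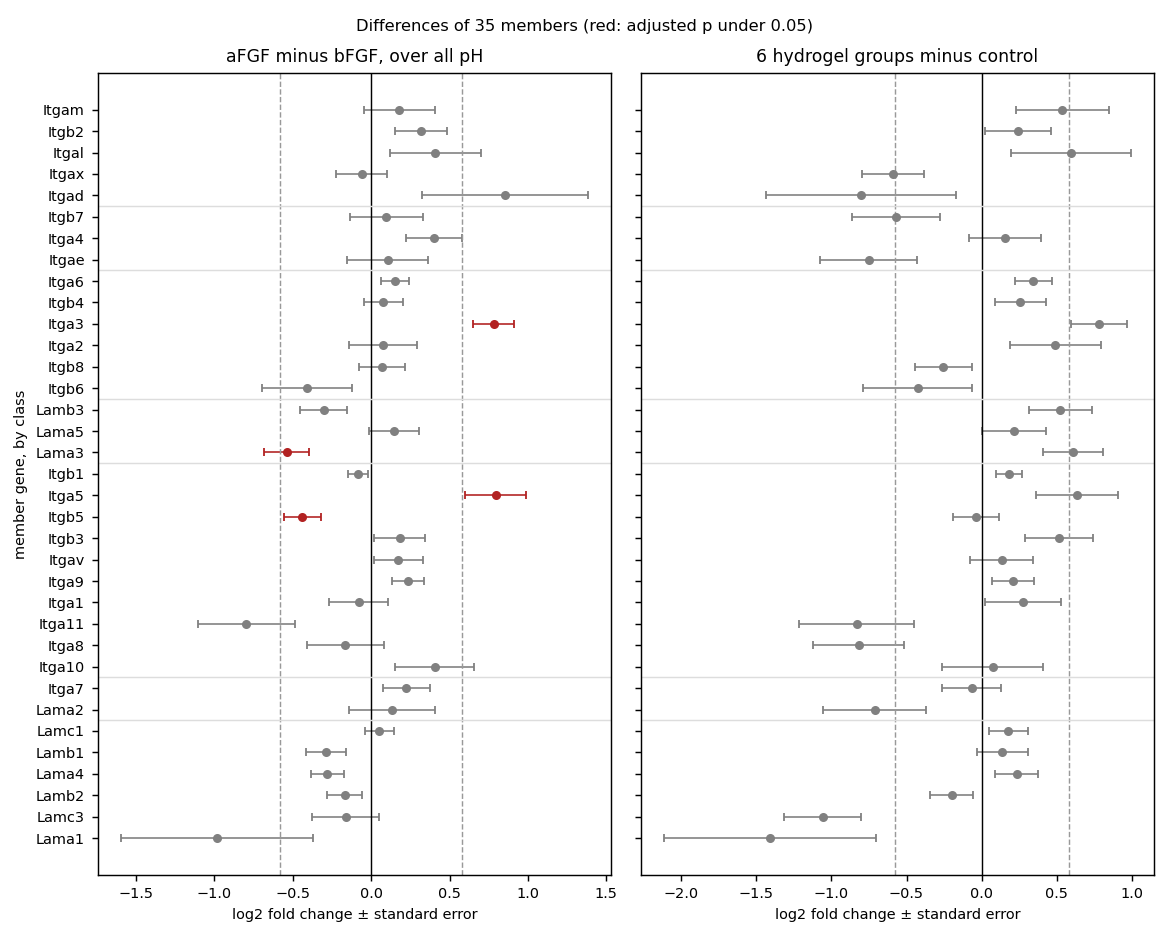
Log2 fold changes with standard errors of 35 members between aFGF and bFGF over all pH (left) and between the 6 hydrogel groups and control (right), ordered by class; dashed lines mark the fold limit of 0.58 and red points have an adjusted p under 0.05. Of the red points on the left, Itga3 and Itga5 lie beyond the limit and Itgb5 and Lama3 within it, and no point on the right is red. Some points that are not red, such as Itga11 on the left, also lie beyond the limit.

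Within a pH, with 3 libraries against 3, edgeR called no member. At pH 7.4 it called 0 of 35 members, against a background of 0%, with 5 members at an unadjusted p under 0.05 (background 13%), and DESeq2 called 2, Itga3 and Itga5 (1.47% of all genes by DESeq2). The libraries of aFGF and bFGF did not overlap for 6 of 35 members there (background 20.8%), which included Itga3 (log2 fold change 0.89, SE 0.18), Itga5 (0.88, SE 0.16) and Lama3 (-0.57, SE 0.17), at an edgeR adjusted p of 0.351 each. At pH 8.4 it called 0 of 35 members (background 0.00665%), with 12 at an unadjusted p under 0.05 (background 21.1%), and DESeq2 called 4, Itga5, Itgb2, Lama3 and Lamc3 (5.21% of all genes by DESeq2). Itga5 and Itgb2 had the smallest p there, with log2 fold changes of 1.14 (SE 0.20, edgeR adjusted p = 0.0932) and 0.67 (SE 0.15, edgeR adjusted p = 0.117), and libraries that did not overlap, as for 11 of 35 members (background 27.5%). Lama3 was at -0.91 (SE 0.23) and Lamc3, a minor gamma chain, at -1.06 (SE 0.28), while Itga3, at 0.64, overlapped between the growth factors. At pH 6.4 edgeR called 0 of 35 (background 0%), with 2 at an unadjusted p under 0.05 (background 8.16%), and DESeq2 called 1, Itga7 (0.673% of all genes by DESeq2). Itga7, the laminin receptor subunit of muscle, had a log2 fold change of 0.93 (SE 0.17, edgeR adjusted p = 0.584) and libraries that did not overlap, as for 3 of 35 members (background 15%).

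Itga7 had CPM of 89.5, 43.8 and 60.0 in control, 94.7, 75.7 and 69.8 in 6.4/aFGF, 54.4, 50.3 and 84.5 in 7.4/aFGF, 56.9, 54.3 and 64.2 in 8.4/aFGF, 49.5, 41.4 and 36.3 in 6.4/bFGF, 58.1, 56.8 and 84.3 in 7.4/bFGF and 69.0, 82.1 and 50.3 in 8.4/bFGF. The 3 libraries of 6.4/bFGF were among the lowest, and 6.4/aFGF replicate 1 was the highest of all. The adipocyte markers, and not those of skeletal muscle, moved with Itga7 over libraries (r = 0.71, rho = 0.70, permutation p = 0.00032 and 0.00077, adjusted 0.0064 and 0.0142; for skeletal muscle r = -0.15). Those markers summed to 2774 to 6641 CPM in 6.4/aFGF and to 697 to 2506 CPM in 6.4/bFGF, and their part in the difference was not tested. Lama2, the alpha chain around muscle fibres and Schwann cells, had mean CPM of 66.1 ± 31.8 in control, 43.4 ± 7.79 in 6.4/aFGF, 44.3 ± 16.9 in 7.4/aFGF, 39.6 ± 18.3 in 8.4/aFGF, 27.6 ± 13.1 in 6.4/bFGF, 43.6 ± 16.4 in 7.4/bFGF and 49.6 ± 19.6 in 8.4/bFGF (SD, n = 3 each) and moved with the Schwann cell and nerve markers (r = 0.72, rho = 0.69, permutation p = 0.0003 and 0.00078, adjusted 0.00623 and 0.0142).

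Hydrogel wounds were then compared with control wounds, 18 libraries against 3, and no member passed the test. EdgeR called 0 of 36 members and 1 of 15811 genes (background 0.00632%), while 13 members had an unadjusted p under 0.05, 8 higher and 5 lower, against 16.7% of all genes (6.29% higher and 10.4% lower), and DESeq2 called 2, Itga3 and Lamc3 (0.909% of all genes by DESeq2). In no member did hydrogel and control libraries separate fully, as they did for 0.582% of genes. The smallest p was that of Itga3, with 25.7 to 76.0 CPM in hydrogel wounds and 21.0 to 31.9 CPM in control (log2 fold change 0.78, SE 0.19, edgeR adjusted p = 0.107). Lamc3 had CPM of 5.57, 2.53 and 6.96 in control and 1.53 to 5.09 (median 2.07) in hydrogel wounds (log2 fold change -1.06, SE 0.26, edgeR adjusted p = 0.113), so that the second control library lay within the hydrogel range. Of the epithelial laminins, Lama3 was at 0.61, Lamb3 at 0.52 and Lama5 at 0.21, each with an edgeR adjusted p of 0.180 or more. Itga5 (0.63), Itgb3 (0.51), Itga6 (0.34) and Itgb1 (0.18) were also among the members with a positive value at an unadjusted p under 0.05, and Itgax (-0.59), Itga8 (-0.82), Itgae (-0.75) and Itga11 (-0.83) among those with a negative value.

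The outcome rested on control replicate 2. Without it, edgeR called 1189 of 16069 genes and 7 members, with Itga2, Itga3, Itga5, Itgam and Lama3 higher in hydrogel wounds and Itga8 and Lamc3 lower. Itga3 then had a log2 fold change of 0.85 (edgeR adjusted p = 0.0281) and Lamc3 of -1.38 (edgeR adjusted p = 0.00627). Several marker lists moved with this split, and the neutrophil markers had already set control replicate 2 apart. The neutrophil score was 3.10 higher on the log2 scale in hydrogel wounds than in control replicates 1 and 3 (1.87 higher than in all 3 controls). The neutrophil markers summed to 3783 to 14253 CPM in hydrogel wounds against 836 and 1405 CPM in control replicates 1 and 3. On the same split the adipocyte score was 1.93 lower in hydrogel wounds, the hair follicle score 1.05 lower and the platelet score 0.79 higher. The adipocyte markers summed to 14462, 1233 and 7891 CPM in control replicates 1, 2 and 3. The part of these lists in the values of these members was not tested. In the test for any difference among the 7 groups, edgeR called 0 of 36 members and 18 genes (background 0.114%), with 11 members at an unadjusted p under 0.05 (background 19.3%), and DESeq2 called 8 (10.8% of all genes by DESeq2). Itga3 came closest (edgeR adjusted p = 0.0599), followed by Lama3 (edgeR adjusted p = 0.121).

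The pH of the gel was examined with each growth factor in turn. For 6.4/aFGF against 7.4/aFGF edgeR called 0 of 35 members (background 0%), with 2 at an unadjusted p under 0.05 (background 4.99%), and DESeq2 none (0.111% of all genes). The libraries did not overlap for 2 of 35 members (background 11%). The smallest p were those of Itgal (log2 fold change -0.90, SE 0.34) and Itgb7, the beta subunit of gut-homing and intraepithelial lymphocytes (-1.26, SE 0.51), both with an edgeR adjusted p of 0.832. Itgb7 was at 17.2, 25.1 and 24.6 CPM in 6.4/aFGF, 92.7, 20.0 and 48.5 CPM in 7.4/aFGF and 16.9, 19.9 and 21.3 CPM in 8.4/aFGF. Its high value lay in 7.4/aFGF replicate 1, the library rich in T and NK cell markers, without which the log2 fold change was -0.61, and that of Itgal -0.42. For 8.4/aFGF against 7.4/aFGF edgeR again called 0 of 35 (background 0%; 4 at an unadjusted p under 0.05, background 3.01%), and DESeq2 none (0.0612% of all genes), with Itgb7 at -1.47 (SE 0.50) and Itgax at -0.72 (SE 0.26), which became -0.82 and -0.42 without 7.4/aFGF replicate 1. The libraries did not overlap for 4 of 35 members there (background 8.3%).

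With bFGF, 6.4/bFGF against 7.4/bFGF gave 0 of 35 members (background 0%; 3 at an unadjusted p under 0.05, background 8.89%) by edgeR and none by DESeq2 (0.631% of all genes), with Itga7 at -0.64 (SE 0.20) and Itga5 at 0.50 (SE 0.16), both at an edgeR adjusted p of 0.542. Both had libraries that did not overlap, as for 3 of 35 members (background 15.2%). For 8.4/bFGF against 7.4/bFGF the count was 0 of 35 as well (background 0%; 5 at an unadjusted p under 0.05, background 5.72%; none by DESeq2, with 0.149% of all genes), with Itga6 at 0.32 (SE 0.075) and Itgam at -0.52 (SE 0.19), both at an edgeR adjusted p of 0.861 and both among the 6 of 35 members whose libraries did not overlap (background 11.7%). The interactions of pH and growth factor gave 0 of 35 members at pH 6.4 (3 at an unadjusted p under 0.05, background 6.09%) and 0 of 36 at pH 8.4 (6, background 4.73%) by edgeR, and none by DESeq2 (0.152% and 0.0216% of all genes). Their smallest p belonged to Itga7 (0.98, SE 0.32) and Itgb7 (-1.59, SE 0.60) at pH 6.4, and to Itga6 (-0.41, SE 0.11) and Itga8 (-1.39, SE 0.43) at pH 8.4, with edgeR adjusted p of 0.804 and 0.993.

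Subunits that form one receptor or one trimer often moved together over the 21 libraries. Of 24 known partner pairs, 13 had a correlation of log2 CPM at a permutation p under 0.05 after adjustment over the 24, 12 of them positive. Their median r was 0.51, and 12 of 24 had r above 0.6, beside a median of 0.02 and 56 of 630 (8.89%) for all pairs of members. All pairs share the same libraries and their mix of cells. The closest pairs were of laminin chains. Lama3 with Lamb3 had r = 0.94 (rho = 0.91, within groups 0.95) and Lama4 with Lamb1 had r = 0.94 (rho = 0.94, within groups 0.93). Both had a permutation p of 1e-05, the smallest that the resamples can give (adjusted 4.8e-05). Lama4 with Lamc1 had r = 0.66 (rho = 0.62, permutation p = 0.00158 and 0.00365, adjusted 0.00421 and 0.00973). Not every laminin pair was close, since Lama5 with Lamb2 had r = -0.17 (rho = -0.14, permutation p = 0.459 and 0.558, adjusted 0.551 and 0.669).

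Among the integrins, Itgam with Itgb2 had r = 0.88 (rho = 0.89, permutation p = 1e-05, adjusted 4.8e-05) and Itgav with Itgb3 had r = 0.85 (rho = 0.81, permutation p = 2e-05 and 5e-05, adjusted 8e-05 and 0.0002). Itgal with Itgb2 had r = 0.77 (rho = 0.75, permutation p = 3e-05 and 0.00023, adjusted 0.000103 and 0.000789) and Itga6 with Itgb4 had r = 0.60 (rho = 0.60, permutation p = 0.00402 and 0.00508, adjusted 0.00965 and 0.0111). Left without the 2 libraries farthest from the median of the first gene, these 4 pairs kept r between 0.51 and 0.88. Itga4 with Itgb7 had r = 0.65 (rho = 0.41, permutation p = 0.00565 and 0.0686, adjusted 0.0113 and 0.127), which rests on 7.4/aFGF replicate 1, since r was 0.28 without it. Itgav with Itgb6 was the negative pair among those that passed (r = -0.51, rho = -0.49, permutation p = 0.018 and 0.0241, adjusted 0.0333 and 0.0481). The alpha subunits tested with Itgb1 did not track it past the threshold, with r = 0.14 for Itga3 and r = 0.39 for Itga5 (rho = -0.07 and 0.20, within groups 0.44 and 0.69, permutation p of r = 0.546 and 0.084, adjusted 0.595 and 0.134). Other alpha subunits that pair with Itgb1 were not tested with it. Their r with Itgb1 ran from -0.37 for Itga10 to 0.66 for Itga2 and 0.67 for Itga1. Itgax did not track Itgb2 past the threshold either (r = 0.26, rho = 0.22, within groups 0.59, permutation p = 0.261 and 0.335, adjusted 0.331 and 0.473).

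**Figure D4:**
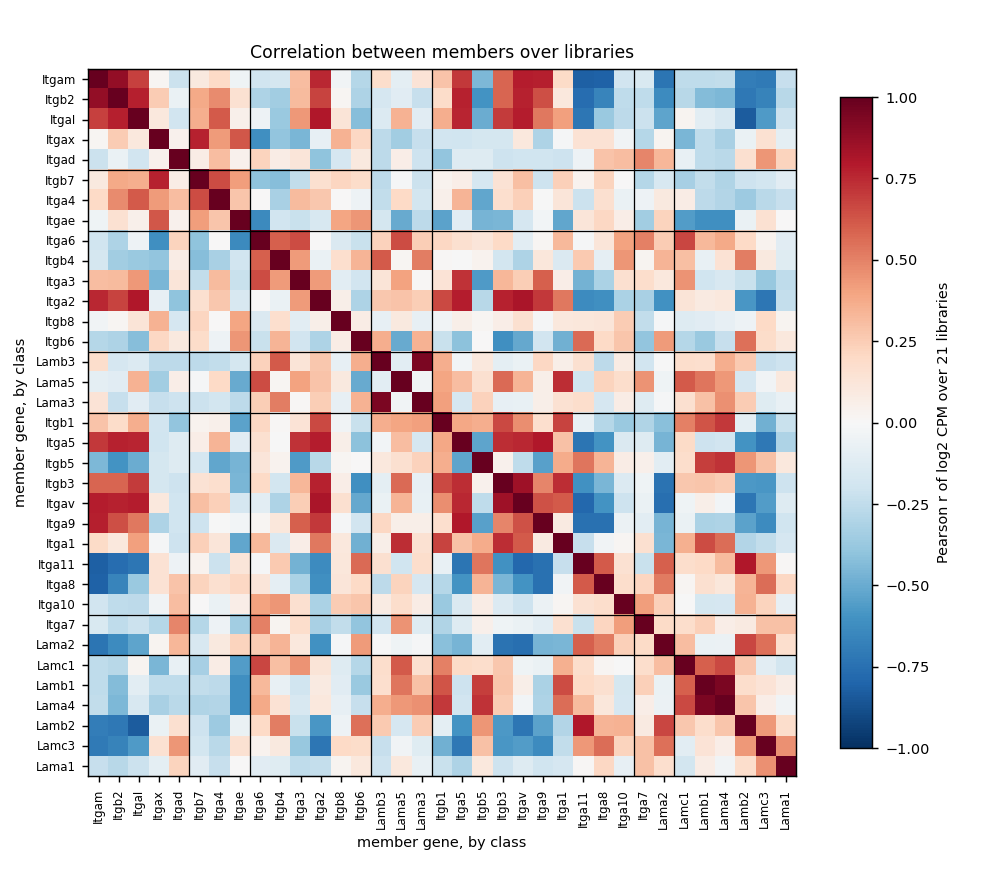
Pearson r of log2 CPM over 21 libraries for every pair of 35 members, ordered by class, from blue (negative) to red (positive). Lama3 and Lamb3 form 1 red block, Lama4 with Lamb1 another, and Itgam, Itgb2 and Itgal share high r with Itga2, Itga5, Itgav, Itgb3 and Itga9 of other classes.

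Markers of 15 cell types and states, none of them a member, were set beside the members. Of 540 pairs of a member and a list, 54 had a permutation p under 0.05 after adjustment over all 540, 34 of them positive. The hair follicle, mast cell and platelet lists passed for no member. The counts upward and downward were 1 and 0 for keratinocyte, 0 and 4 for macrophage and monocyte, 2 and 0 for dendritic cell, 3 and 0 for T and NK cell, 4 and 2 for fibroblast, 2 and 3 for smooth muscle and pericyte, 1 and 2 for skeletal muscle, 2 and 3 for Schwann cell and nerve, 1 and 0 for adipocyte and 3 and 0 for proliferation markers. The neutrophil markers moved with 8 members upward and 5 downward, across classes. Itgam (r = 0.87, rho = 0.86), Itgav (r = 0.86, rho = 0.89), Itgal (r = 0.80, rho = 0.83), Itgb3 (r = 0.78, rho = 0.71) and the epithelial class gene Itga2 (r = 0.88, rho = 0.73) each had a permutation p of r of 1e-05 (adjusted 0.000675; adjusted p of rho at most 0.00939). Without control replicates 1 and 3, the libraries farthest in this score, r was 0.72, 0.86, 0.71, 0.67 and 0.60, and within groups it was 0.84, 0.93, 0.83, 0.78 and 0.85. Opposite to them were Itga11 (r = -0.80, rho = -0.87), Lamb2, a chain of vessel and muscle basement membranes (r = -0.77, rho = -0.89), and Lama2 (r = -0.77, rho = -0.79), with permutation p of r of 1e-05, 1e-05 and 5e-05 (adjusted 0.000675, 0.000675 and 0.00169).

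The endothelial markers moved with 7 members upward and 1 downward, among the former Lamb1 (r = 0.80, rho = 0.71, within groups 0.87), Lama5 (r = 0.80, rho = 0.80, within groups 0.93), the collagen receptor subunit Itga1 (r = 0.78, rho = 0.78, within groups 0.80) and Lama4 (r = 0.74, rho = 0.63, within groups 0.79), with permutation p of r from 1e-05 to 0.00019 (adjusted 0.000675 to 0.00466). Itgb4 moved with the keratinocyte markers (r = 0.74, rho = 0.69, permutation p = 4e-05 and 0.00079, adjusted 0.00154 and 0.0142), while Lama3 and Lamb3 did not pass for any list. Their r with the keratinocyte markers was 0.20 and 0.39 over all libraries and 0.69 and 0.76 within groups, so the likeness lay within groups and was weaker across them. Itgb7 (r = 0.85, rho = 0.74, permutation p = 2e-05 and 0.00019, adjusted 0.00108 and 0.00831) and Itgax (r = 0.74, rho = 0.69, permutation p = 6e-05 and 0.00067, adjusted 0.00191 and 0.0139) moved with the T and NK cell markers, and without the 2 libraries farthest in that score r was 0.56 and 0.55. Itgae, the partner of Itgb7 on epidermal T cells and some dendritic cells, moved with the dendritic cell markers (r = 0.75, rho = 0.70, permutation p = 0.00013 and 0.00059, adjusted 0.00369 and 0.0133). Itgae also passed with the T and NK cell markers, and a member of the Itgb2 family passed with the dendritic cell markers. Itgb6, placed among epithelial genes, moved with the skeletal muscle markers (r = 0.78, rho = 0.73, permutation p = 3e-05 and 0.00023, adjusted 0.00147 and 0.00887), against r = 0.53 with the keratinocyte markers.

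**Figure D5:**
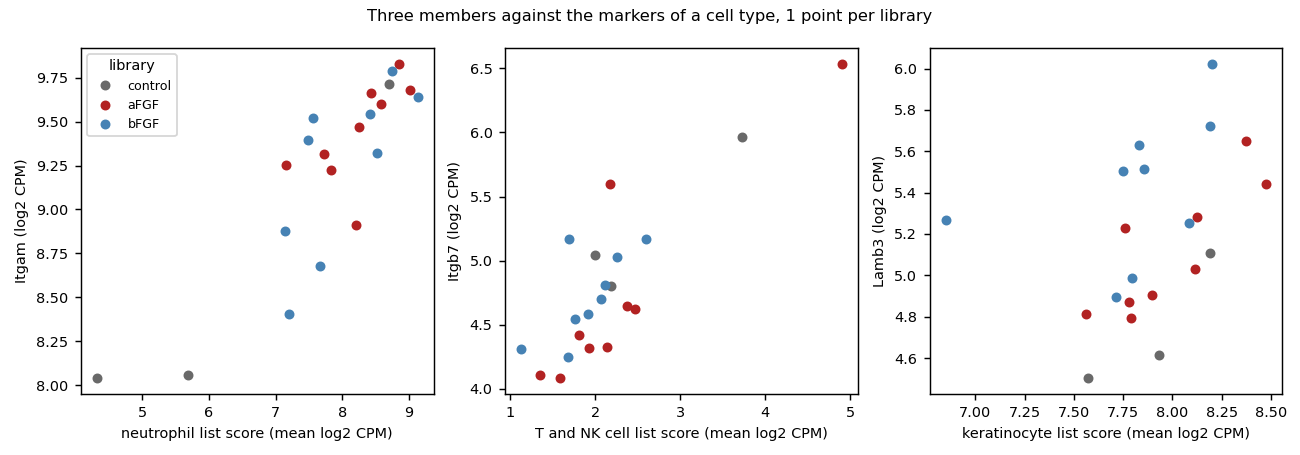
Log2 CPM of Itgam, Itgb7 and Lamb3 against the mean log2 CPM of the neutrophil, the T and NK cell and the keratinocyte markers, 1 point per library, with control grey, aFGF red and bFGF blue. Itgam follows the neutrophil markers with 2 controls at the low end, Itgb7 reaches its highest value in 1 aFGF library, and at a given keratinocyte score most bFGF points for Lamb3 lie above the control points.

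Other genes of the same adhesion machinery were counted from lists chosen by function. Of 28 integrin activators and adaptors, 1 was called between aFGF and bFGF, Tns4, a short tensin of epithelial cells that binds the tail of integrin beta subunits, and 4 passed the adjusted p at any fold. Over all genes these shares were 3.2% and 10.8%, near those of the list. Tns4 had a mean of 51.5 ± 7.90 CPM with aFGF, 26.0 ± 5.49 CPM with bFGF (SD, n = 9 each) and 25.2 ± 4.09 CPM in control (SD, n = 3), and no aFGF library overlapped a bFGF library (log2 fold change 1.01, SE 0.10, edgeR adjusted p = 9.89e-05). Fermt3, the kindlin of blood cells, followed at 0.44 (SE 0.11, edgeR adjusted p = 0.0236). Of 23 hemidesmosome and basement membrane partners, 1 was called (3.2% of all genes), Col7a1, the collagen of anchoring fibrils that binds the keratinocyte laminin. Col7a1 ran from 25.6 to 50.5 CPM with aFGF, 38.8 to 77.4 CPM with bFGF and 78.1 to 90.5 CPM in control (log2 fold change of aFGF against bFGF -0.71, SE 0.14, edgeR adjusted p = 0.00737). Plec, the plectin that ties hemidesmosomes to keratin, was at 0.37 (SE 0.098, edgeR adjusted p = 0.0269), within the fold limit.

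Of 24 integrin ligands, 1 was called (3.2% of all genes), the fibrinogen chain Fga, at 3.13 (SE 0.92, edgeR adjusted p = 0.0427). Its level was low, up to 8.98 CPM in 1 library of 8.4/aFGF and at most 0.886 CPM with bFGF. Lgals3, a galectin that binds integrin glycans, was at 0.33 (SE 0.098, edgeR adjusted p = 0.0411), within the fold limit. Against control, edgeR called no gene of these lists, with 4 of the 28 adaptors, 8 of the 23 basement membrane partners and 7 of the 24 ligands at an unadjusted p under 0.05, against 16.7% of all genes. Col7a1 came closest, with a log2 fold change of -0.91 (SE 0.17, edgeR adjusted p = 0.0612), followed by Lims1, an adaptor of the integrin-linked kinase (0.33, edgeR adjusted p = 0.122), Tns4 (0.52, edgeR adjusted p = 0.127), Lgals3 (-0.44, edgeR adjusted p = 0.147) and Tgfb3 (-0.59, edgeR adjusted p = 0.163).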

How the data were processed

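The authors deposited raw counts per gene without normalization, and FPKM values. Each FPKM is the count over a gene length and the library total (checked on 12238 genes, spread of the recovered length at most 4.42e-07%). The submitters' processing notes name GRCm39; the aligner, counting tool and annotation are not given in the sources used here. All 36 members were found in a RefSeq table of an older mouse assembly, used for names only. The members, classes, marker lists, pathway lists and tests were chosen with earlier results of these data known.

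Differences were tested on the counts by the quasi-likelihood test of edgeR 4.0.16 in R 4.3.3, over all genes past filterByExpr, with TMM scaling and Benjamini-Hochberg adjustment; log2 CPM used a prior count of 2. Calls required an adjusted p below 0.05 and a log2 fold change larger than 0.58 in size, as in the study's volcano plot. Comparisons of groups used the libraries compared; those over all pH or against control used all 21 libraries. Correlations used 100000 resamples, two-sided. Alternatives were DESeq2 1.42.0, limma 3.58.1 on log2(FPKM + 1) or log2(FPKM + 0.1), other filters and scaling, a replicate block and leaving out libraries. Floors are 3 counts and cover counting error only. The scripts were tested on simulated data. Named were members of the main receptors and laminins, every member called and the 2 with the smallest p in each comparison. Other members fall outside that rule and were named after their values were seen. The values of 1 member are not reported here; it is counted among the 36.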

Additional observations from a re-analysis of the deposited data

Results flagged for a closer look

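In 7 of 72 sets of 9 libraries (36 members, aFGF and bFGF separately), 1 library lay far from the other 8 by Dixon's criterion. For normal values in independent sets, chance gives about 1 in 20. The values here are CPM without logs and the sets share libraries, so that rate need not hold. In 7.4/aFGF replicate 1, the library rich in T and NK cell markers, Itga4 was at 145.7 CPM (next 58.6), Itgb7 at 92.7 CPM (next 48.5) and Itgax at 35.5 CPM (next 23.4). Lama1 was at 15.3 CPM in 8.4/bFGF replicate 2 (next 1.54), a library in which earlier results had shown genes of other tissues, and at 2.52 CPM in 6.4/aFGF replicate 1 (next 1.11). Itga10, a collagen receptor subunit best known from cartilage, was at 4.59 CPM in 7.4/aFGF replicate 3 (next 2.07), also a library with genes of other tissues. Itgb8 was at 12.7 CPM in 8.4/bFGF replicate 3 (next 9.25).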

How the results depend on the processing

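No value that passed its test changed direction under the alternatives run. Correlations of 4 partner pairs that did not pass changed sign: on log2(FPKM + 1), r became -0.011 for Itga3 with Itgb1 and 0.15 for Itga11 with Itgb1, and leaving out a library gave -0.091 to 0.22 and -0.20 to 0.18 for these pairs, -0.19 to 0.042 for Itgad with Itgb2 and -0.045 to 0.32 for Itgav with Itgb8. Of the counts or values that answer a comparison, 302 stayed near the reported one and 13 moved. Between aFGF and bFGF over all pH, 1 member (Itga3) was called without the 3 libraries with genes of other tissues, 4 with no fold threshold, and 2 to 3 when each library was left out. For the hydrogels against control, DESeq2 called 2 members and leaving out a library gave 0 to 7. For the 7 groups, DESeq2 called 8, the fit with a replicate block 1 (Itga3), and leaving out a library gave 0 to 6. Between aFGF and bFGF at 1 pH, DESeq2 called 1 member at 6.4, 2 at 7.4 and 4 at 8.4, and leaving out a library gave 0 to 1 at 8.4 (1, Itga3, without 8.4/aFGF replicate 3). DESeq2 also called more of all genes than edgeR, with 778 against 506 for aFGF against bFGF, 121 against 0 at pH 6.4, 264 against 0 at pH 7.4, 949 against 1 at pH 8.4, 171 against 1 for the hydrogels and 2030 against 18 for the 7 groups. Between pH values and in the interactions it called 4 to 113 genes where edgeR called 0. The cause was not tested. The limma fits on log2(FPKM + 1) called 212 genes between aFGF and bFGF, or 191 with no filter, and edgeR with no fold threshold called 1702. Leaving out a library gave 269 to 714 there (714 without 7.4/aFGF replicate 3), 0 to 1189 for the hydrogels (1189 without control replicate 2), 7 to 864 for the 7 groups (864 without control replicate 2), 0 to 172 at pH 8.4 (172 without 8.4/aFGF replicate 3) and 0 to 278 for 6.4/bFGF against 7.4/bFGF (278 without 7.4/bFGF replicate 3). A fit of all 21 libraries called 12 genes at pH 7.4 and 10 at pH 8.4. For the hydrogels, a minimum of 10 counts in every library gave 5 genes, and the block or no fold threshold 2. The replicate numbers did not pair the libraries: the correlation of deviations had a median of 0.01 over 63 pairs of the same number and -0.01 over 126 of other numbers. The block left 403 genes called between aFGF and bFGF against 506 without it, and 10 against 18 for the 7 groups. Fits without the 3 libraries gave no separate value where none of them was compared.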

Other observations

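Itga3 and Lama3, a laminin receptor subunit and a chain of its ligand, differed between aFGF and bFGF in opposite directions. The log2 ratio of their CPM, a pair chosen after the values were seen, was 0.13 to 1.27 (median 0.60) in the 9 aFGF libraries, -0.87 to -0.18 (median -0.65) in the 9 bFGF libraries and -0.36 to 0.37 (median -0.32) in the 3 controls. The ranges of aFGF and bFGF did not overlap, although those of each gene alone did. The pair was chosen for its opposite differences between these same libraries, which by itself widens the gap of the ratio. How often the ratios of other such pairs part was not computed. This is a description, with no test.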
